A study of Mus musculus with 6 samples.

Results

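The nuclear genes of the mitochondrial respiratory chain were compared between presomitic mesoderm tissue of Dll3 mutant and wild-type mouse embryos. Members were taken by gene symbol: every gene whose platform symbol begins with Nduf, Uqcr, Cox4 to Cox8 or Atp5, together with Sdha, Sdhb, Sdhc, Sdhd and Cycs, and without the heart isoform gene Cox6a2. This gave 84 of the 12393 genes with a single symbol on the array, read by 158 probe sets, and all 84 entered the tests since no filter on low values was used. They are 34 genes of complex I and 5 assembly factors of complex I (the Ndufaf genes, which the symbol rule includes although they are no subunits), 4 genes of complex II, 8 of complex III, the cytochrome c gene Cycs, 15 genes of complex IV and 17 of complex V. The 8 probe sets that name a member together with another gene were left out, and subunits encoded by mitochondrial DNA were not analysed here.

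The mutant group, called Dll3neo here, held 3 pools of embryos at 9.5 days post coitum that were homozygous for the Dll3 allele tm1Rbe, also called neo (genotype Dll3-tm1Rbe/tm1Rbe or Dll3neo/neo, on c57bl/6). The WT group held 3 pools of wild-type c57bl/6 embryos of the same age. Each pool is a biological replicate measured on 1 Affymetrix MOE430A array, and how many embryos went into each pool is not stated in the labels. The tail was cut off at the border between the presomitic mesoderm and the newest somite, or the matching position in mutants, after removal of the allantois, so tissue of all germ layers was sampled at that level and not mesoderm alone.

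The respiratory chain sits in the inner mitochondrial membrane. Complex I takes electrons from NADH and complex II from succinate, complex III passes them to cytochrome c, and complex IV hands them to oxygen. Complexes I, III and IV pump protons, and complex V, the ATP synthase, lets them flow back to make ATP. Most subunits are encoded in the nucleus, and their promoters are known targets of the regulators NRF1, GABP (an ETS factor) and YY1. In the tail bud of vertebrate embryos, glycolysis is known to be active next to respiration.

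For 92.8% of all probe sets the deposited ratio has a median of 1 across the 6 arrays, and 1640 have a lower median, among them 1 probe set each of Cox7c and Ndufab1. The ratio was taken to log2 and averaged over the probe sets of a gene, so 0 lies near the middle of most genes' values. It does not for Cox7c, which was below 0 in 5 of 6 pools, with -0.21, -0.25 and -0.04 in Dll3neo pools 1, 2 and 3, against -0.20, -0.24 and 0.09 in WT pools 1, 2 and 3. No absolute level, nor a comparison of level between genes, can be given from such ratios. Because the tissue was sampled in bulk, fewer cells of a type and less RNA per cell cannot be told apart. Dll3, the gene that was mutated, had log2 ratios of -1.06, -1.07 and -0.90 in Dll3neo pools 1, 2 and 3, against 0.55, 0.71 and 1.01 in WT pools 1, 2 and 3. The groups did not overlap, the mutant being lower, with a log2 difference of -1.76 (95% interval -2.05 to -1.47) and a limma adjusted p of 0.00132. Pool medians over all genes lay between -0.03 and 0.01. Dll3neo pool 1 stood apart by heart muscle genes: of 22 markers 20 were highest there (12% of all genes), with a median log2 ratio of 1.32, against -0.24 to 0.01 in the other pools. The 10 measured presomitic mesoderm markers, Tbx6, Msgn1 and Hes7 among them, were lower in Dll3neo by sign in 10 of 10, with pool medians of -0.14, -0.24 and -0.06 in Dll3neo pools 1, 2 and 3, against 0.14, 0.02 and 0.26 in WT pools 1, 2 and 3.

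Respiratory chain genes differed little between the genotypes. None of the 84 genes passed the test (limma with Benjamini-Hochberg adjustment over all 12393 genes, threshold 0.05), where 1 gene, or 0.00807% of all genes, passed. At an unadjusted limma p under 0.05 there were 0 of 84 members, beside 1.28% of all genes, and each member had an adjusted p of 0.99998. By sign 46 members were higher and 38 lower in Dll3neo, with a median log2 difference of 0.01, beside 6338 of 12393 genes higher and a median of 0.0028 over all genes. Quantile normalization gave 56 higher and 28 lower with a median of 0.03. The differences ran from -0.31 for Ndufaf4 to 0.16 for Ndufa6, and 81 of 84 were smaller than 0.2 in size.

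The precision of this comparison was set by the spread between pools. The standard error of a member's difference was 0.13 in the median, and the difference was larger than its standard error for 10 of 84 members (11.9%, beside 21.6% of all genes). The 95% interval of the difference (limma, not adjusted for the number of genes) included 0 for 84 of 84 members, beside 98.7% of all genes. For 82 members (97.6%, beside 96.1% of all genes) it lay within a 1.5-fold change in either direction, a log2 difference of 0.58. The exceptions were Ndufaf4 and Uqcrfs1, whose intervals reached -0.69 and -0.68. The 3 mutant and the 3 wild-type values were without overlap for 1 member, the ATP synthase gene Atp5g3, which was lower in Dll3neo. Over all genes, 4.95% were without overlap, 3.11% higher and 1.84% lower in Dll3neo.

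**Figure D1:**
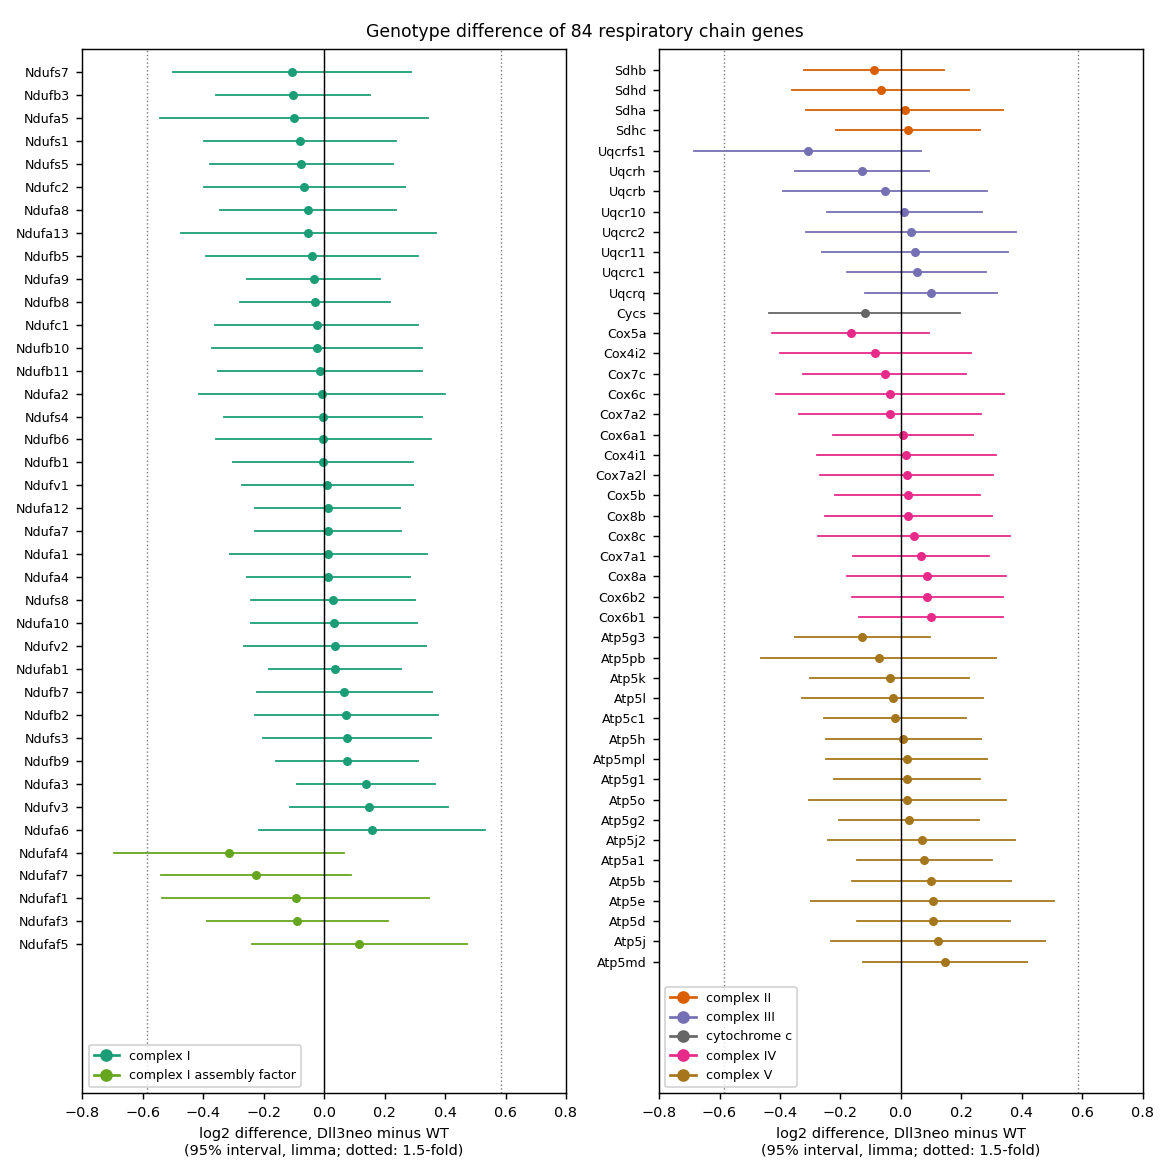
Log2 difference (Dll3neo minus WT, horizontal axis) of each of the 84 genes, grouped by complex, with bars for the 95% interval from limma (n = 3 pools per genotype). All 84 intervals cross the line at 0, and those of Ndufaf4 and Uqcrfs1 are the 2 that pass a dotted 1.5-fold line.

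By complex, the genotypes were close in each case. The median log2 difference was -0.003 for complex I (16 of 34 higher by sign), -0.03 for complex II (2 of 4), 0.02 for complex III (5 of 8), 0.02 for complex IV (10 of 15) and 0.02 for complex V (12 of 17). These medians are smaller than the SD between pools of a genotype, which was 0.16, 0.11, 0.08, 0.09 and 0.12 for the pool medians of complexes I to V in that order. Leaving out WT pool 1 gave a median of -0.07 over the 84 genes, with 21 higher and 63 lower by sign, and leaving out WT pool 3 gave 0.09, with 70 higher and 14 lower. Leaving out Dll3neo pool 1, where heart muscle genes were high, gave 0.05, with 61 higher and 23 lower. The sign of the genotype difference thus turned on single pools, while 0 of 84 members passed the test in each of these fits.

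Complex I is the largest complex and gave the most members. Its genes with the smallest p had higher values in Dll3neo: the accessory subunit genes Ndufa3, Ndufv3 and Ndufa6. Ndufa3 had log2 ratios of 0.06, 0.13 and -0.03 in Dll3neo pools 1, 2 and 3, against -0.17, -0.08 and 0.0029 in WT pools 1, 2 and 3. For Ndufv3 they were 0.04, 0.01 and -0.01 in Dll3neo pools 1, 2 and 3, against -0.32, -0.15 and 0.06 in WT pools 1, 2 and 3. Ndufa6 had -0.02, 0.02 and 0.28 in Dll3neo pools 1, 2 and 3, against -0.25, -0.28 and 0.33 in WT pools 1, 2 and 3. In each of these 3 genes WT pools 1 and 2 were the lowest of the 6, and WT pool 3 lay among or above the mutant pools, so the genotypes overlapped. The log2 differences were 0.14 (95% interval -0.09 to 0.37), 0.15 (95% interval -0.11 to 0.41) and 0.16 (95% interval -0.22 to 0.53).

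The core subunits of complex I carry the flavin and the iron-sulfur clusters that conduct the electrons. Of their genes 6 were measured, with differences from -0.11 for Ndufs7 to 0.08 for Ndufs3 and a median of 0.02, beside -0.0032 for the 28 accessory genes. Ndufs7, which binds the last iron-sulfur cluster before the quinone, had -0.41, 0.11 and 0.02 in Dll3neo pools 1, 2 and 3, against -0.28, -0.0026 and 0.32 in WT pools 1, 2 and 3. The flavin subunit gene Ndufv1 had -0.22, 0.12 and 0.11 in Dll3neo pools 1, 2 and 3, against -0.13, -0.03 and 0.14 in WT pools 1, 2 and 3. Pool 1 was the lowest in both genotypes for these 2 genes. Ndufs1 went another way, with -0.05, 0.21 and -0.22 in Dll3neo pools 1, 2 and 3, against 0.05, -0.14 and 0.26 in WT pools 1, 2 and 3. Its lowest pool was Dll3neo pool 3.

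Among the 5 assembly factors of complex I, 4 were lower in Dll3neo by sign. Ndufaf4, a chaperone of early assembly steps, had the largest genotype difference of all members, and its values were -0.10, 0.03 and -0.30 in Dll3neo pools 1, 2 and 3, against -0.11, 0.10 and 0.58 in WT pools 1, 2 and 3. Its mean was -0.12 ± 0.17 in Dll3neo and 0.19 ± 0.35 in WT (SD, n = 3 pools each), and the log2 difference of -0.31 (95% interval -0.69 to 0.06) ran from -0.46 to -0.12 when 1 pool was left out. WT pool 3 was the highest pool by a wide margin, and without it the difference was -0.12. The 2 probe sets of Ndufaf4 had genotype differences of -0.45 and -0.18, with 0.91 and 0.25 in WT pool 3. Ndufaf7, an arginine methyltransferase that modifies a core subunit, had -0.01, 0.01 and -0.17 in Dll3neo pools 1, 2 and 3, against 0.05, -0.03 and 0.48 in WT pools 1, 2 and 3. For Ndufaf1, another early assembly factor and the member with the widest range over the 6 pools, the values were -0.13, 0.14 and -0.08 in Dll3neo pools 1, 2 and 3, against -0.39, 0.08 and 0.52 in WT pools 1, 2 and 3. In all 5 assembly factor genes WT pool 3 was the highest of the 6 pools.

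Complex II, succinate dehydrogenase, had differences between -0.09 and 0.02. Sdhb, the iron-sulfur subunit gene, had -0.15, 0.01 and -0.01 in Dll3neo pools 1, 2 and 3, against -0.07, 0.09 and 0.10 in WT pools 1, 2 and 3. The flavoprotein gene Sdha had -0.20, 0.18 and -0.04 in Dll3neo pools 1, 2 and 3, against -0.30, 0.04 and 0.17 in WT pools 1, 2 and 3, lowest in pool 1 of each genotype. The membrane anchor genes were Sdhc, with -0.05, -0.05 and 0.10 in Dll3neo pools 1, 2 and 3, against -0.16, 0.01 and 0.08 in WT pools 1, 2 and 3, and Sdhd, with -0.10, -0.07 and 0.12 in Dll3neo pools 1, 2 and 3, against -0.06, -0.09 and 0.31 in WT pools 1, 2 and 3. Pool 3 was the highest of its genotype for both anchors and the genotypes overlapped for all 4 genes, with differences of -0.09 for Sdhb, 0.01 for Sdha, 0.02 for Sdhc and -0.07 for Sdhd.

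In complex III the gene that stood out was Uqcrfs1, which encodes the Rieske iron-sulfur protein. Its values were 0.05, -0.08 and -0.58 in Dll3neo pools 1, 2 and 3, against 0.03, -0.03 and 0.32 in WT pools 1, 2 and 3. The low mean of the mutant came from Dll3neo pool 3, while Dll3neo pool 1 was higher than WT pools 1 and 2. The mean was -0.20 ± 0.33 in Dll3neo and 0.11 ± 0.19 in WT (SD, n = 3 pools each), and the log2 difference of -0.31 (95% interval -0.68 to 0.07) ran from -0.43 to -0.12 when 1 pool was left out, the smallest size being without Dll3neo pool 3. Uqcrh, the hinge protein gene, had -0.08, 0.0029 and -0.16 in Dll3neo pools 1, 2 and 3, against 0.04, -0.0029 and 0.12 in WT pools 1, 2 and 3. Uqcrq, the gene of a small subunit, had -0.03, -0.01 and 0.09 in Dll3neo pools 1, 2 and 3, against -0.03, -0.08 and -0.14 in WT pools 1, 2 and 3. The core protein genes Uqcrc1 and Uqcrc2 had differences of 0.05 and 0.03, both smaller than their standard errors. Cycs, the gene of the mobile electron carrier cytochrome c, had -0.10, -0.13 and 0.17 in Dll3neo pools 1, 2 and 3, against -0.09, 0.02 and 0.37 in WT pools 1, 2 and 3, with a log2 difference of -0.12 (95% interval -0.44 to 0.20).

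Complex IV, cytochrome c oxidase, has several subunits that come in a widely expressed and a tissue-restricted isoform, so its genes were set side by side by family. Outside the families, Cox5a had the smallest p of the complex, with -0.05, 0.04 and -0.13 in Dll3neo pools 1, 2 and 3, against -0.03, 0.07 and 0.31 in WT pools 1, 2 and 3. WT pool 3 was again the highest, and the log2 difference was -0.17 (95% interval -0.43 to 0.09). The widely expressed Cox4i1 had 0.04, 0.12 and -0.05 in Dll3neo pools 1, 2 and 3, against -0.18, -0.05 and 0.30 in WT pools 1, 2 and 3. Its lung-enriched paralog Cox4i2 had -0.31, 0.05 and -0.06 in Dll3neo pools 1, 2 and 3, against 0.14, 0.08 and -0.28 in WT pools 1, 2 and 3. In WT pool 3 these 2 genes lay at opposite ends, Cox4i1 at its highest and Cox4i2 near its lowest.

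The COX6B and COX7A families gave a more uniform picture. Cox6b1 had 0.02, 0.13 and -0.01 in Dll3neo pools 1, 2 and 3, against -0.17, -0.08 and 0.08 in WT pools 1, 2 and 3, and its testis isoform Cox6b2 had -0.11, 0.05 and 0.08 in Dll3neo pools 1, 2 and 3, against -0.24, -0.02 and 0.02 in WT pools 1, 2 and 3. Cox7a2, the widely expressed isoform, had -0.22, -0.0021 and 0.13 in Dll3neo pools 1, 2 and 3, against -0.19, 0.00084 and 0.21 in WT pools 1, 2 and 3. Cox7a2l, a factor that joins complexes III and IV into supercomplexes, had -0.19, 0.10 and 0.10 in Dll3neo pools 1, 2 and 3, against -0.18, -0.03 and 0.17 in WT pools 1, 2 and 3. WT pool 1 was the lowest wild-type pool for these 4 genes, and WT pool 3 the highest. Cox7a1, the heart and skeletal muscle isoform, had -0.02, 0.06 and 0.02 in Dll3neo pools 1, 2 and 3, against -0.16, 0.04 and -0.02 in WT pools 1, 2 and 3. In Dll3neo pool 1, where heart muscle genes were high, Cox7a1 was thus close to its median, and so was the heart and muscle isoform gene Cox8b at -0.04. Cox6a2, which was left out of the members, had 0.38 there, against -0.43 to 0.19 in the other pools. The part of heart RNA in the members' values was not tested.

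The COX8 family differed from most of the chain. Cox8a, the widely expressed isoform read by 3 probe sets, had 0.05, 0.12 and -0.09 in Dll3neo pools 1, 2 and 3, against 0.04, 0.04 and -0.25 in WT pools 1, 2 and 3. Cox8b had -0.04, -0.02 and 0.02 in Dll3neo pools 1, 2 and 3, against 0.10, 0.09 and -0.29 in WT pools 1, 2 and 3. The testis isoform gene Cox8c had 0.12, -0.12 and -0.07 in Dll3neo pools 1, 2 and 3, against 0.11, 0.07 and -0.37 in WT pools 1, 2 and 3. WT pool 3 was the lowest of the 6 pools for all 3 genes, as it was for 32.5% of all genes. The genotype differences of 0.08, 0.02 and 0.04 did not pass the test. Cox8b and Cox8c were read by 1 probe set each, and signal over background is not known from these ratios.

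Complex V genes were higher in Dll3neo by sign in 12 of 17, and the 5 genes of its catalytic F1 head had a median log2 difference of 0.10, beside 0.02 for the 12 others. Without WT pool 1 these medians were 0.01 for the F1 genes and -0.06 for the others, and without WT pool 3 they were 0.17 and 0.10. Atp5b, the gene of the catalytic beta subunit, had 0.16, 0.03 and -0.03 in Dll3neo pools 1, 2 and 3, against -0.23, -0.03 and 0.11 in WT pools 1, 2 and 3. The alpha subunit gene Atp5a1 had -0.0029, 0.02 and 0.02 in Dll3neo pools 1, 2 and 3, against -0.16, -0.07 and 0.04 in WT pools 1, 2 and 3. The delta subunit gene Atp5d had -0.06, 0.10 and 0.16 in Dll3neo pools 1, 2 and 3, against -0.18, -0.03 and 0.09 in WT pools 1, 2 and 3. WT pool 1 was the lowest of the 6 for these 3 genes. The other F1 genes are the epsilon subunit gene Atp5e, with -0.13, 0.16 and -0.02 in Dll3neo pools 1, 2 and 3, against -0.55, 0.02 and 0.22 in WT pools 1, 2 and 3, and the gamma subunit gene Atp5c1, with -0.20, 0.06 and 0.01 in Dll3neo pools 1, 2 and 3, against -0.01, -0.01 and -0.05 in WT pools 1, 2 and 3. Atp5e was lowest in WT pool 1 as well, whereas Atp5c1 was lowest in Dll3neo pool 1 and had a difference of -0.02. Without WT pool 1, the difference of Atp5d was 0.04, and it ran from 0.04 to 0.17 over the sets of 5 pools. Atp5md, the gene of a small subunit of the membrane sector, had 0.04, -0.02 and 0.02 in Dll3neo pools 1, 2 and 3, against -0.17, -0.32 and 0.10 in WT pools 1, 2 and 3, with a log2 difference of 0.15 (95% interval -0.13 to 0.42).

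The c-ring of the ATP synthase is encoded by 3 genes whose precursors differ in the mitochondrial import sequence and give the same mature protein. Atp5g1 had -0.04, 0.03 and 0.04 in Dll3neo pools 1, 2 and 3, against -0.15, -0.03 and 0.14 in WT pools 1, 2 and 3. Atp5g2 had -0.08, 0.08 and -0.00056 in Dll3neo pools 1, 2 and 3, against -0.07, -0.10 and 0.09 in WT pools 1, 2 and 3. Atp5g3, the 1 member without overlap between the genotypes, had -0.0029, -0.07 and -0.12 in Dll3neo pools 1, 2 and 3, against 0.0029, 0.03 and 0.17 in WT pools 1, 2 and 3. The gap between the groups was narrow, since Dll3neo pool 1 and WT pool 1 were nearly equal. Its mean was -0.06 ± 0.06 in Dll3neo and 0.07 ± 0.09 in WT (SD, n = 3 pools each), and the log2 difference was -0.13 (95% interval -0.35 to 0.10). For Atp5g1 and Atp5g2 the differences were 0.02 and 0.03; whether the 3 genes differ from each other in their response was not tested.

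**Figure D2:**
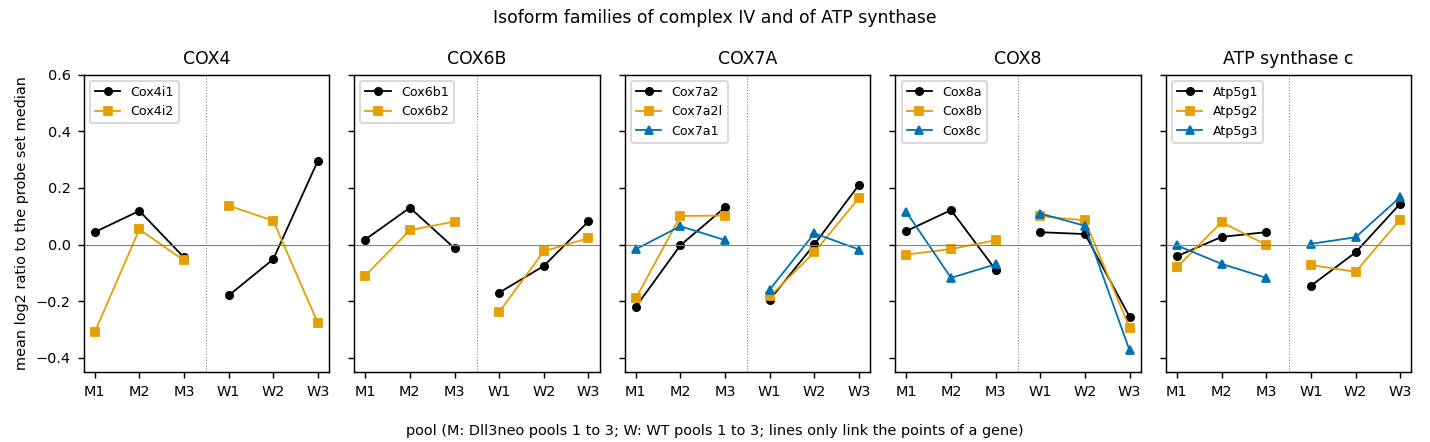
Mean log2 ratio (vertical axis) of the isoform genes in Dll3neo pools 1 to 3 (M1 to M3) and WT pools 1 to 3 (W1 to W3), with 1 panel per family and lines that only link the points of a gene. In WT pool 3 Cox8a, Cox8b, Cox8c and Cox4i2 lie between -0.37 and -0.25, below 0, and Cox4i1, Cox7a2 and the 3 Atp5g genes lie above 0.

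Most members were ordered alike in WT pools 1 and 3. The SD between pools was 0.12 in Dll3neo and 0.20 in WT in the median of the members (n = 3 pools each), beside 0.11 in Dll3neo and 0.15 in WT in the median of all genes. The median log2 ratio of the 84 genes was -0.08, 0.05 and 0.03 in Dll3neo pools 1, 2 and 3, against -0.16, -0.02 and 0.19 in WT pools 1, 2 and 3. WT pool 3 was above WT pool 1 for 78 of 84 members, beside 52.5% of all genes, and the median gap of 0.34 is a 1.27-fold higher level in WT pool 3. WT pool 3 was the highest of the 6 for 60 members (34.4% of all genes) and WT pool 1 the lowest for 45 (21.2% of all genes). WT pool 3 was the lowest for 4 members (32.5% of all genes). In the mutant, pool 3 was above pool 1 for 62 of 84 members, beside 53.6% of all genes, with a median gap of 0.15. The wild-type pools differed more among themselves than the mutant pools for 69 of 84 members, beside 67.1% of all genes.

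The size of this gap between pools depended on the scaling of the arrays. Under quantile normalization the median gap between WT pools 3 and 1 was 0.19, it was positive for 76 of 84 members, and WT pool 3 was the highest pool for 26 members in place of 60 (18.1% of all genes under that scaling). With each array centred on its median the gap was 0.32, in 78 of 84 members. Each comparison of these 2 pools rests on 1 array each and has no replicate check.

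All complexes took part. The median gap between WT pools 3 and 1 was 0.39 in complex I (34 of 34 genes positive), 0.30 in complex II (4 of 4), 0.22 in complex III (7 of 8), 0.25 in complex IV (11 of 15) and 0.29 in complex V (16 of 17). Among the complex I genes with a wide gap were Ndufa5, an accessory subunit gene with -0.25, 0.06 and 0.10 in Dll3neo pools 1, 2 and 3, against -0.31, -0.04 and 0.55 in WT pools 1, 2 and 3, and Ndufa13, also known as the cell death regulator Grim19, with -0.31, 0.02 and 0.20 in Dll3neo pools 1, 2 and 3, against -0.32, -0.02 and 0.41 in WT pools 1, 2 and 3; both were picked after their values were seen. The 6 genes that went the other way were Uqcrq, Atp5c1, Cox4i2, Cox8a, Cox8b and Cox8c, of which 4 belong to complex IV. Uqcrq and Atp5c1 turned positive when each gene was read by its most variable probe set. With plain _at probe sets only, they were more negative, at -0.40 and -0.33. Cox4i2, Cox8a, Cox8b and Cox8c stayed negative under quantile normalization and median centring. Cox8a, read by 3 probe sets, was at -0.34 with its most variable probe set and -0.27 with plain _at probe sets. Cox4i2, Cox8b and Cox8c have 1 probe set each, so neither probe set choice nor log2(value + 1) could turn their sign. Of the 22 heart muscle markers, 20 were also below 0 in WT pool 3, where the median of all genes was -0.01. WT pool 3 was the lowest of the 6 pools for 15 of these markers, beside 32.5% of all genes. The part of tissue makeup in this pattern was not tested.

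**Figure D3:**
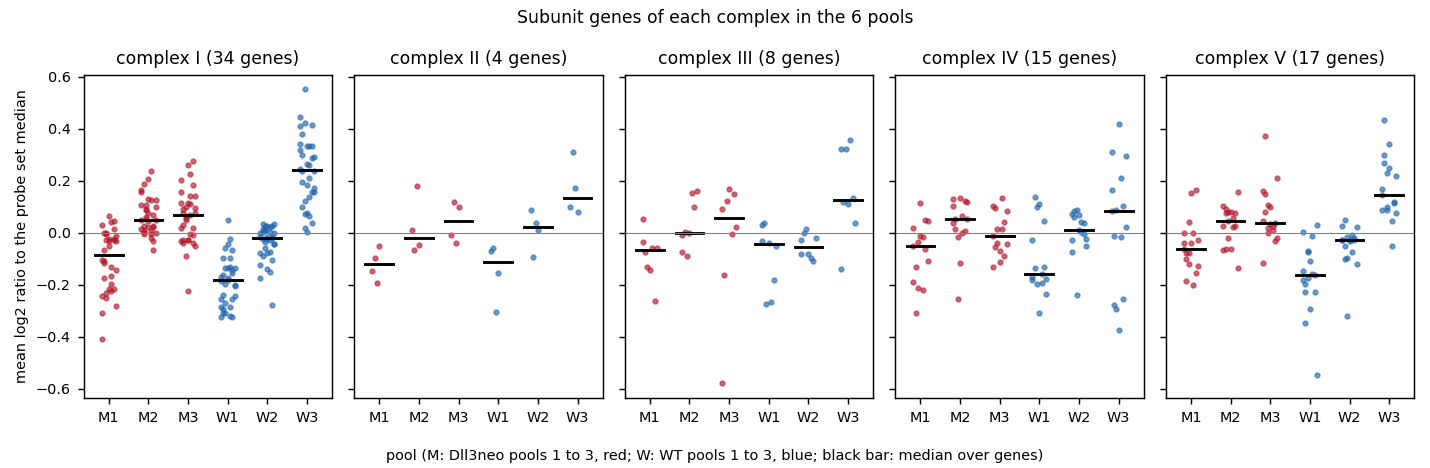
Mean log2 ratio (vertical axis) of each gene of complexes I to V in the Dll3neo pools (red, M1 to M3) and the WT pools (blue, W1 to W3), with black bars for the median over genes. In complexes I, IV and V the WT pool 1 medians, between -0.18 and -0.16, are the lowest of the 6, and the WT pool 3 median is the highest in every complex.

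Probe sets of the same gene mostly showed the pool pattern together. Of 46 members with over 1 probe set, 7 had probe sets that disagreed on the sign of the gap between WT pools 3 and 1, and 25 had probe sets that disagreed on the sign of the genotype difference. Uqcrq was among the 7: 1 of its 4 probe sets had -0.26, 0.07 and 0.33 in Dll3neo pools 1, 2 and 3, against -0.32, -0.08 and 0.44 in WT pools 1, 2 and 3, and another had 0.11, -0.25 and 0.05 in Dll3neo pools 1, 2 and 3, against -0.05, 0.07 and -0.49 in WT pools 1, 2 and 3. These probe sets are at opposite ends in WT pool 3, and the gene's value of -0.14 there averages over all 4. Cox5a agreed across its 3 probe sets, with genotype differences of -0.15, -0.17 and -0.18. None of the 158 member probe sets passed limma over all 22626 probe sets, where 1 (0.00442%) passed, and 0 had an unadjusted p under 0.05 (1.16% of all probe sets). Several of these genes have processed pseudogenes or close paralogs, and which transcripts a probe set also binds was not examined.

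Other mitochondrial genes were also highest in WT pool 3. Mitochondrial ribosomal protein genes (74 measured) had medians of -0.15, 0.05 and 0.06 in Dll3neo pools 1, 2 and 3, against -0.14, -0.02 and 0.19 in WT pools 1, 2 and 3, and WT pool 3 was above WT pool 1 in 92.9% of the respiratory chain genes and in 94.6% of these. Assembly factors outside the symbol rule (30 of 42 measured) had -0.06, 0.03 and 0.03 in Dll3neo pools 1, 2 and 3, against -0.14, -0.03 and 0.17 in WT pools 1, 2 and 3. For the citric acid cycle and pyruvate dehydrogenase (15 of 17) the medians were -0.04, 0.0029 and 0.03 in Dll3neo pools 1, 2 and 3, against -0.10, -0.01 and 0.20 in WT pools 1, 2 and 3. Regulators of mitochondrial gene expression (16 of 18) had -0.08, 0.01 and 0.01 in Dll3neo pools 1, 2 and 3, against -0.14, 0.01 and 0.19 in WT pools 1, 2 and 3, and carriers and structural proteins of the membranes (13 of 16) had -0.04, 0.01 and 0.04 in Dll3neo pools 1, 2 and 3, against -0.07, -0.01 and 0.16 in WT pools 1, 2 and 3. In these 5 lists the median of WT pool 3 was the highest of the 6 pools.

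The cytosolic lists had the same order of wild-type pools, with a narrower median gap than the 0.34 of all 84 members. Within the chain, the gap was 0.22 in complex III and 0.25 in complex IV. Glycolysis genes (18 of 21) had -0.04, 0.01 and 0.06 in Dll3neo pools 1, 2 and 3, against -0.05, -0.02 and 0.13 in WT pools 1, 2 and 3, a median gap of 0.22 between WT pools 3 and 1 that was positive in 72.2%. Cytosolic ribosomal protein genes (53 measured) had -0.05, 0.02 and 0.04 in Dll3neo pools 1, 2 and 3, against -0.06, -0.01 and 0.11 in WT pools 1, 2 and 3, with a gap of 0.19 that was positive in 86.8%. Over all genes the median gap was 0.03. The difference between these lists and the respiratory chain was not tested.

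**Figure D4:**
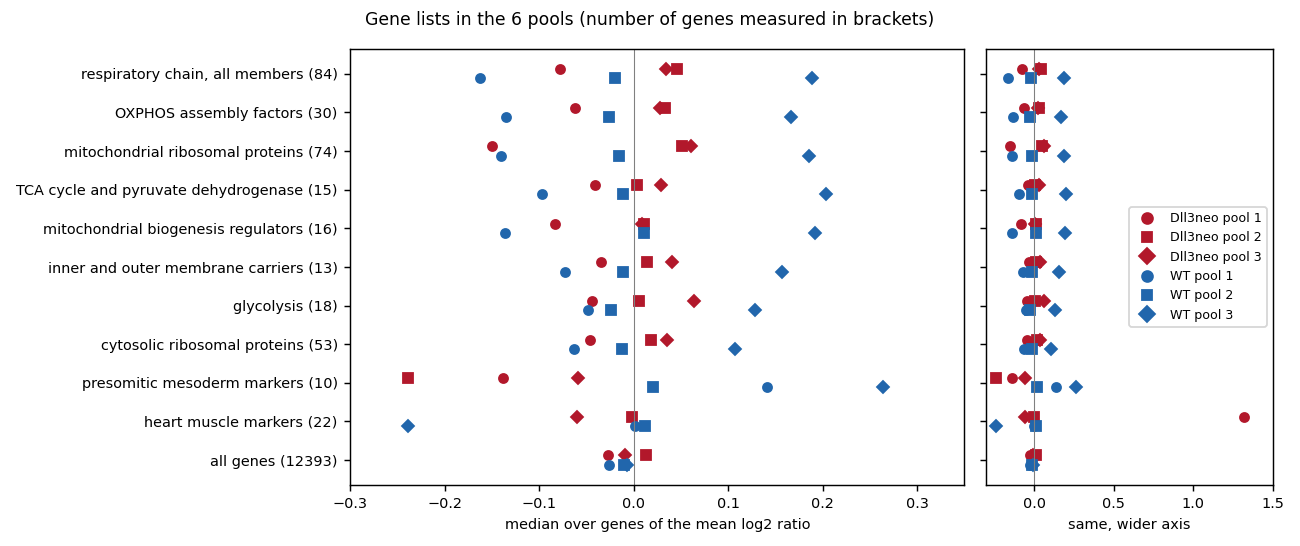
Median log2 ratio (horizontal axis) of the respiratory chain and of 9 other gene lists in the Dll3neo pools (red) and the WT pools (blue), with all genes in the bottom row and a wider axis at the right for the heart muscle genes. The respiratory chain median runs from -0.16 in WT pool 1 to 0.19 in WT pool 3, and the heart muscle median reaches 1.32 in Dll3neo pool 1.

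Between the genotypes, none of these lists had a member past the test over all genes. By sign 10 of 30 assembly factors were higher in Dll3neo (median log2 difference -0.02), as were 2 of 15 citric acid cycle genes (-0.05), 3 of 16 regulators (-0.07), 4 of 13 carriers (-0.01), 30 of 74 mitochondrial ribosomal protein genes (-0.02), 20 of 53 cytosolic ones (-0.01) and 6 of 18 glycolysis genes (-0.03). The genes with the smallest p were Sco2 (0.17), a copper chaperone of complex IV without overlap between genotypes, and Foxred1 (-0.23) among the assembly factors. They were the pyruvate dehydrogenase gene Pdha1 (-0.18, without overlap) and the fumarase gene Fh1 (-0.15) in the citric acid cycle list. Among the regulators they were Mterf3 (-0.34) and the mitochondrial transcription factor gene Tfb2m (-0.29), and among the carriers Immt (-0.15), which shapes the cristae, and the outer membrane channel gene Vdac2 (-0.13, without overlap). Sco2 was the 1 of 30 assembly factors without overlap, beside 3.11% of all genes that were higher in this way. Pdha1 was the 1 of 15 and Vdac2 the 1 of 13 in their lists, beside 1.84% of all genes lower. Mrps36 (-0.21) and Mrpl50 (-0.25) led the mitochondrial ribosome, Rps27l (-0.17) and Rps15 (0.12) the cytosolic one, and the transporter gene Slc2a3 (-0.44) and Ldhb (0.21) glycolysis. In the heart muscle list, 21 of 22 genes were higher by sign (median 0.54), with Tnni1 (1.01) and Actc1 (1.41) first. Without Dll3neo pool 1 the heart median was 0.03, and Tnni1 and Actc1 had 0.32 each. In the presomitic mesoderm list (median -0.23) the first were the Notch feedback inhibitor gene Nrarp (-0.63, without overlap) and the clock repressor gene Hes7 (-0.43, without overlap), and 4 of its 10 genes were lower without overlap, beside 1.84% of all genes.

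Most of these list genes had differences that depended on single pools. Of the 18 named, 14 moved by over 1.5 times when 1 pool was left out, and the 4 that did not were Sco2, Vdac2, Nrarp and Hes7. Without WT pool 3, where Mterf3 had 0.89, the difference was -0.0054 for Mterf3, -0.01 for Fh1, -0.03 for Mrpl50, -0.05 for Rps27l and -0.08 for Foxred1. Without Dll3neo pool 1 it was -0.11 for Tfb2m and -0.07 for Mrps36. Without Dll3neo pool 2 it was -0.21 for Slc2a3, -0.12 for Pdha1, -0.08 for Immt and 0.07 for Rps15, and without WT pool 1 it was 0.11 for Ldhb.

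The promoters of the members, which the symbol rule did not use, were also examined. Windows from 250 bases before to 50 bases after a start site, from RefSeq (GRCm38.p6), were matched for 71 of 84 members and searched on both strands. The NRF1 motif, read as GCGC, any base and TGCGC in a row, was present in 16 of the 71 members (22.5%), against 5.19% of 27025 genes and 4.60% of 32851 windows. Its palindromic form, with A as the free base, which is included in that count, was present in 6 (8.45%, against 1.07% of genes). The YY1 core AAGATGGCG was present in 6 members (8.45%, against 1.64% of genes), and the ETS core CCGGAAGT in 5 (7.04%, against 4.31% of genes). By complex, the 16 members with the NRF1 motif were 4 complex I genes, 2 assembly factors, 2 complex II genes, 1 gene each of complexes III and IV and 6 complex V genes. The median gap between WT pools 3 and 1 was 0.37 in members with the NRF1 motif and 0.34 in those without, and the median genotype difference was -0.01 and 0.01. For the YY1 core the gap was 0.54 with and 0.34 without. It was 0.28 and 0.37 for the ETS core, and 0.27 and 0.36 for the palindromic form. These 3 motifs were in 5 to 6 members each, and whether a motif goes with the gap was not tested. The motif shares are over all genes with a window and not over the genes of the array, and base composition was not matched. A match is a stretch of letters and not a measured binding site.

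Windows are shown for 5 members whose values are described above, with the motif in capitals: Ndufaf4 (the largest genotype difference), Ndufa5 (a wide gap between pools) and the c-ring paralogs Atp5g2 and Atp5g3 for NRF1, and Ndufs7 for YY1. The match begins 113 bases before the start site in Ndufaf4, 26 before it in Ndufa5 and 42 before it in Atp5g2, and 12 bases after it in Atp5g3 and 24 after it in Ndufs7. Another Ndufa5 window, not shown, holds the same match 190 bases before its own start site. In Ndufa5 the motif lies on the opposite strand, so the capitals show its reverse complement.
Ndufaf4 (chr4:24897833-24898132, plus strand): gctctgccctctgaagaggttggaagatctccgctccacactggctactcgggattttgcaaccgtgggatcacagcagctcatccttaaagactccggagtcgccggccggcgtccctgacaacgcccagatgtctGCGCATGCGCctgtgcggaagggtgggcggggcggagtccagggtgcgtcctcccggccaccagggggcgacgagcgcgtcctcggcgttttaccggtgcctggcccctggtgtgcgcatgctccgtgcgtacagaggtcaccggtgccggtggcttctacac
Ndufa5 (chr6:24527641-24527940, minus strand): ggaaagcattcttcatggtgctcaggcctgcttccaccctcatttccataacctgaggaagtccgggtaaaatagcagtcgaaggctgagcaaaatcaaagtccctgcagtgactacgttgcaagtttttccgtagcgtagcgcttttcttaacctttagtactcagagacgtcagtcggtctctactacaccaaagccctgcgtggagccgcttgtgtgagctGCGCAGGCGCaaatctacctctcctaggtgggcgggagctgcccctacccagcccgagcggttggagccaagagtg
Atp5g2 (chr15:102670998-102671297, minus strand): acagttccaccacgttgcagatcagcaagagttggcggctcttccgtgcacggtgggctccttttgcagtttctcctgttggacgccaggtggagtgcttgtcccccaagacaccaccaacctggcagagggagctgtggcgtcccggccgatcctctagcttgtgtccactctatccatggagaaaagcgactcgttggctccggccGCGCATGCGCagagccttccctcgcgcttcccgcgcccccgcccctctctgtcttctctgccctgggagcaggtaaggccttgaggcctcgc
Atp5g3 (chr2:73911277-73911576, minus strand): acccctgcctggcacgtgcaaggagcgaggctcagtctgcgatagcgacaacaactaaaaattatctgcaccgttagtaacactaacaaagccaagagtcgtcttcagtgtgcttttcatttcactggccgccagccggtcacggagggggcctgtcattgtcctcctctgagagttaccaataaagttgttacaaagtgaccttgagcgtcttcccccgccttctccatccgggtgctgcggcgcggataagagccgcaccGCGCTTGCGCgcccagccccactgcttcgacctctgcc
Ndufs7 (chr10:80249199-80249498, plus strand): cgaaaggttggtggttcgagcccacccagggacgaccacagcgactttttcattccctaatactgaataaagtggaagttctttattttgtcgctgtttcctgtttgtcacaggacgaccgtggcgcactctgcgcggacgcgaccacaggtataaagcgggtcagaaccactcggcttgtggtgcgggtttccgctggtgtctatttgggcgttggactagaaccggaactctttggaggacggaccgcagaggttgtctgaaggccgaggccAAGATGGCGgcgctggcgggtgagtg

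Among these 5 genes, the palindromic form was in Ndufaf4 and Atp5g2, whose genotype differences were -0.31 and 0.03. Of the c-ring genes, each with 1 window searched, Atp5g2 and Atp5g3 held an NRF1 match, and these letters were not in the Atp5g1 window.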

How the data were processed

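RNA from 3 Dll3neo and 3 WT pools was read on 1 MOE430A array each. The deposited table holds linear ratios. Of its 22626 probe sets (Affymetrix controls left out), 92.8% have a median of 1 within 0.0011 across the 6 arrays, so most rows appear scaled to their median. The submitters' processing notes list RMA and MAS5 but give neither a role, so summarisation and scaling between arrays stay unknown. Log2 ratios were averaged per gene over the 20380 probe sets with 1 platform symbol (12393 genes). All genes were tested with limma (version 3.58.1, under R 4.3.3): a linear model with genotype alone, moderated by eBayes, with two-sided p-values adjusted by Benjamini-Hochberg at a threshold of 0.05. These p-values weigh the genotype difference against the spread between the pools. Array weights used the gene-by-gene method. The number of arrays limits the precision. With 3 against 3 pools an exact permutation test cannot go below 0.10, so none was used. Complexes were assigned by symbol, so Ndufa4 stands with complex I although its protein is now counted with complex IV. Members and lists were chosen with earlier results of these data known. Named genes are Dll3, the 3 smallest p of each complex, the 3 widest ranges, isoform families and 2 genes per list; others were picked after seeing values. Leaving out 1 pool for the F1, heart and other list genes was added after seeing the data. Alternatives were quantile normalization, median centring, log2(value + 1), a filter on medians below 1, trend, robust and weighted fits, the replicate block, other probe set choices and leaving out each pool. On simulated independent noise for 12393 genes the test recovered 43.3%, 82.1% and 98.5% of genes changed 1.5-fold, 2-fold and 3-fold, with 8 false calls. Python 3.11.15 and matplotlib 3.10.9 were used for tables and plots.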

Additional observations from a re-analysis of the deposited data

How the results depend on the processing

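Under the 16 alternatives, 0 of 84 respiratory chain genes passed in each, with 0 to 5 members at an unadjusted limma p under 0.05. The 5 came with array weights, where 920 of all 12393 genes had such a p. Without WT pool 3 there were 4 members, beside 440 of all genes. The number of genes called was 1 as reported (Dll3) and 2 with quantile normalization, median centring, the filter on medians below 1, a variance trend and plain _at probe sets (Dll3 and Hnrnpl), 3 with array weights, and 1 to 2 when 1 pool was left out. The number of probe sets called was 2 with quantile normalization, 2 with array weights, and 0 to 1 when 1 pool was left out. The replicate block kept 1 gene called and 0 members, with 252 genes at an unadjusted limma p under 0.05 in place of 159. Same-numbered pools' deviations correlated at 0.19, -0.0015 and 0.21 for pools 1, 2 and 3. Between Dll3neo pool 1 and WT pool 3 the correlation was -0.20, and between Dll3neo pool 3 and WT pool 1 it was -0.18. Whether the pool numbers mark a shared batch was not tested. Array weights rested mostly on WT pool 2 (weight 5.24), were smallest for WT pool 3 (0.21), and gave 61 members higher and 23 lower. The median difference of all 84 genes lay between -0.07 and 0.09 when 1 pool was left out, and by complex it moved by less than the spread between pools in every alternative except complex III on plain _at probe sets (-0.076), where fewer genes were tested. The median gap between WT pools 3 and 1, an alternative added after seeing the data, was 0.19 with quantile normalization and 0.17 on the log2(value + 1) scale, which compresses differences by its construction. With plain _at probe sets only, 54 of the 63 members left had WT pool 3 above WT pool 1. Each call rests on 3 arrays per genotype, and signal over background is not known from ratios.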
